A study of Homo sapiens with 21 samples.

Results

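The interferon receptor, JAK, STAT and IRF genes described here are IFNAR1, JAK1, TYK2, STAT2, IRF1, IRF2, IRF3, IRF7 and IRF9. They were chosen by symbol from the table of normalised read counts, and make up 9 of its 16383 listed genes. The study sequenced poly(A) RNA of IMR90, a human lung fibroblast cell line, in 21 libraries that form 7 groups of 3. Proliferating cells received neither irradiation nor siRNA. In the other 6 groups ionising radiation was used to induce senescence, a lasting arrest of division, siRNA was given at 5 nM on day 4 and again on day 7, and RNA was taken on day 10. Of these, 2 groups received the non-targeting control siRNAs NT3 and NT4, and 4 groups received siRNA against CCND1, against CDK4, against CDK6, or against CDK4 and CDK6 together (the dual knockdown). CCND1 encodes cyclin D1, the partner of the cell cycle kinases CDK4 and CDK6. Irradiation and transfection cannot be told apart in any comparison with the proliferating group. All groups come from 1 cell line, the labels name 1 siRNA product per target without a sequence, and nothing in them says that the libraries of a group came from separate cultures, so p-values measure only the spread between these libraries, which may be technical.

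Type I interferons bind a receptor made of IFNAR1 and IFNAR2, whose cytoplasmic tails carry the tyrosine kinases TYK2 and JAK1. The kinases phosphorylate STAT proteins, among them STAT2, which joins IRF9 in ISGF3, a complex that binds interferon-stimulated response elements and switches on the interferon-stimulated genes. IRF3 and IRF7 act upstream, since after nucleic acid sensing they induce the interferon genes themselves, while IRF1 is an activator and IRF2 mainly an antagonist at overlapping sites. In senescent fibroblasts, cytosolic DNA sensing and interferon signalling are known to accompany the late secretory phenotype.

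Libraries held between 12892442 and 21822152 reads in the listed genes. NT3 replicate 3 had the fewest reads and stood apart from the rest, with an SD of its log2 deviations from its group mean of 0.344 over the tested genes, against 0.193 to 0.256 in the other 20 libraries. For the 9 genes, calls that change without it are given with both values. Values of all other genes are given with all libraries only. The targeted transcripts were lowered to 12.1% of control level for CCND1, 8.75% for CDK4 and 16.6% for CDK6 after single knockdown, and to 9.50% for CDK4 and 20.7% for CDK6 after dual knockdown. Where not targeted, CDK4 was at 76.2% after CDK6 and 88.1% after CCND1 knockdown. CDK6 was at 127% after CDK4 and 110% after CCND1 knockdown. CCND1 was at 124% after CDK4 knockdown and 144% after CDK6 and dual knockdown, though its mean count was 32092 with NT3 and 46302 with NT4. All 10 fibroblast markers were present in every group, with summed values of 490435 to 911456. The 8 leukocyte markers summed to 662 to 1624, nearly all of it CD68, and PTPRC had at most 8 reads in a library. The 5 endothelial markers summed to 1763 to 1888 in proliferating cells, 2058 to 3717 in controls and 4092 to 4509 after CDK6 knockdown, nearly all of it TEK, while CDH5 had 11 reads over all libraries. The 6 epithelial markers summed to 99 to 297. The part of these markers in the results was not tested, and in bulk RNA fewer cells of a type and less RNA per cell cannot be told apart.

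The tests below used limma on log2(normalised count + 1) over 11579 genes, with p-values adjusted over all of them and a threshold of 0.05. All 9 genes entered the test. IRF7 did so through 7 irradiated libraries with a value of at least 10, of which 5 were controls, so counts are also given without it. In the senescent controls (NT3 and NT4 together) against proliferating cells, 5 of the 9 genes rose and 2 fell, where 32.6% of all genes rose and 36.1% fell. In either direction that is 77.8% of the 9, against 68.6% of all genes, and 6 of 8 without IRF7. Libraries did not overlap for 6 of the 9 genes, and for 5 of 8 without IRF7, where 54.1% of all genes did not overlap. The genes that rose were IRF9, IRF7, IRF1, STAT2 and IFNAR1, and those that fell were IRF2 and TYK2.

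Each knockdown was then set against the mean of NT3 and NT4, so these 4 comparisons share their control libraries. CCND1 knockdown changed 6 of the 9 genes, 1 up and 5 down, where 31% of all genes changed (16.7% up and 14.4% down), and 5 of 8 without IRF7. CDK6 knockdown changed 6 of 9, also 1 up and 5 down, against 41.9% of all genes (21.1% up and 20.8% down), and again 5 of 8 without IRF7. Dual knockdown changed 5 of 9, 1 up and 4 down, against 44% of all genes (22.5% up and 21.5% down), and 4 of 8 without IRF7, which is near the background. CDK4 knockdown changed none of the 9 by limma, and none had an unadjusted p under 0.05, where 16% of all genes changed. edgeR and DESeq2 on the recovered reads also called none after CDK4 knockdown. The gene that rose after CCND1, CDK6 and dual knockdown was IFNAR1, and IRF9, IRF7, IRF1 and STAT2 fell after each of them, while IRF2 fell after CCND1 and CDK6 knockdown. Libraries did not overlap with the controls for 3 genes after CCND1 knockdown (all genes 21.2%), 3 after CDK6 knockdown (28.6%) and 4 after dual knockdown (28.3%). Without IRF7 they were 3, 2 and 3 of 8 genes, which for CDK6 knockdown is near the background.

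The control siRNAs themselves differed at 3 of these genes by limma, and at 2 by edgeR and by DESeq2. NT4 against NT3 had 1 gene higher (IFNAR1) and 2 lower (STAT2 and IRF2), where 27.8% of all genes differed (14.7% higher and 13.1% lower). In either direction that count is near the background. With NT4 as the sole control, CCND1, CDK6 and dual knockdown changed 3 genes each rather than 6, 6 and 5. With NT3 as the sole control, each of the 3 knockdowns changed 5. Called in the same direction against either control were IRF1 and IRF9 after CCND1 knockdown, IRF1 and IRF9 after CDK6 knockdown, and IRF7 and IRF9 after dual knockdown. Of these, IRF7 had entered the test mainly through the controls. The values of STAT2, IRF2 and IFNAR1 after CCND1, CDK6 and dual knockdown are therefore given below against each control separately.

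**Figure D1:**
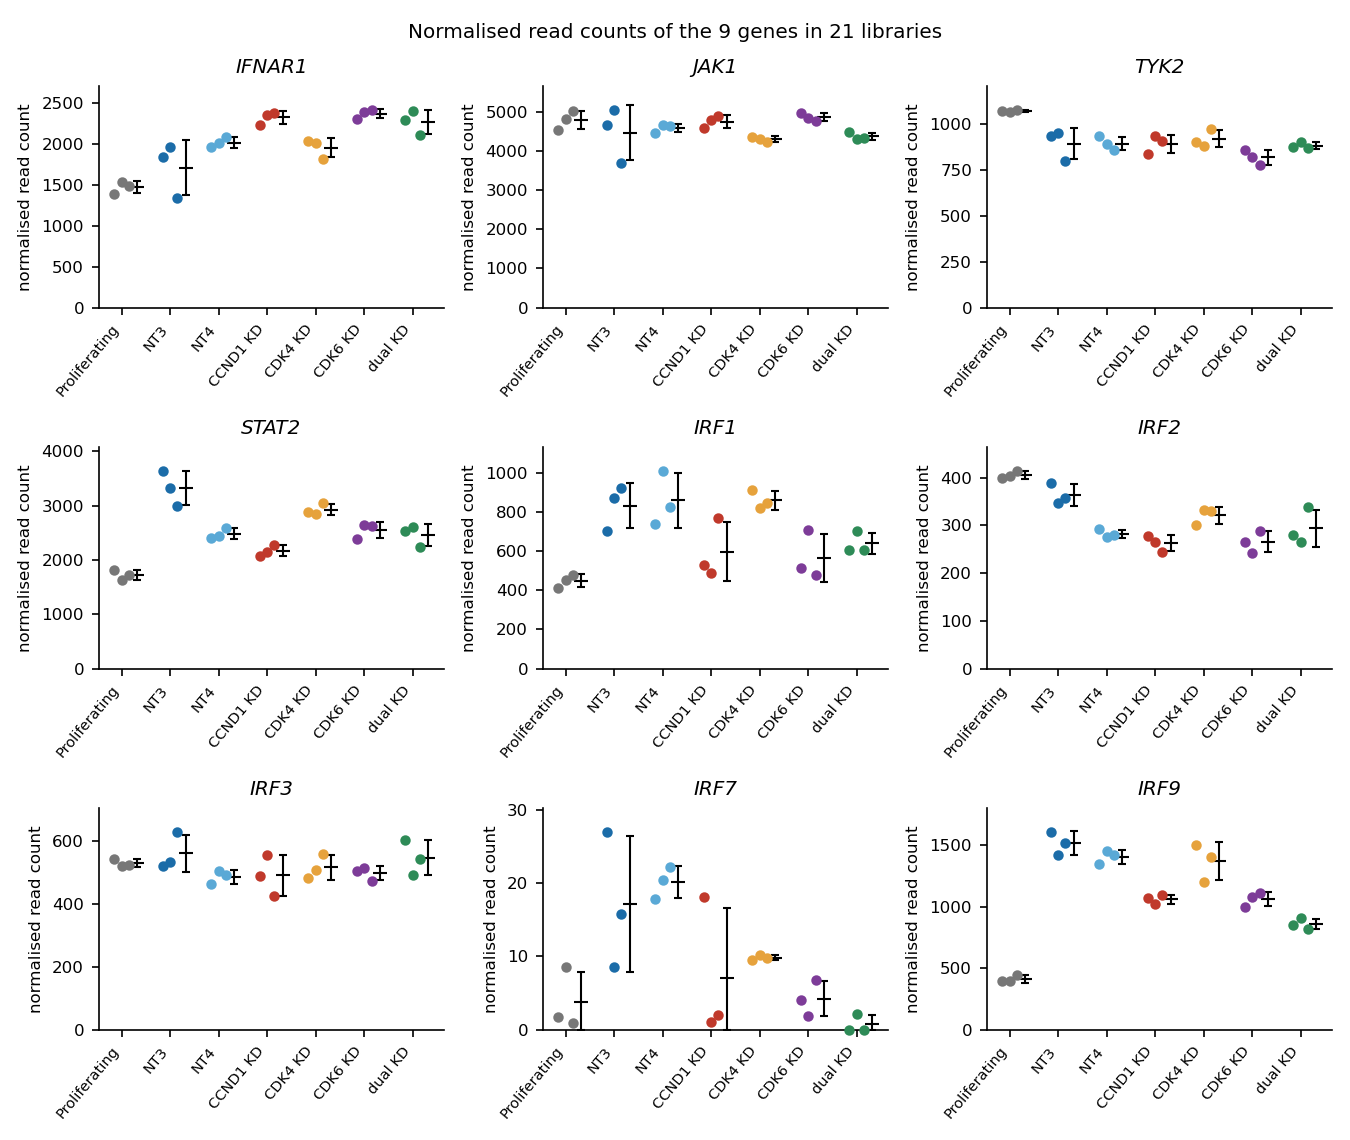
Normalised read count (vertical axes, linear from 0) of each of the 9 genes in every library of the 7 groups on the horizontal axes, with KD for knockdown. Coloured points are the 3 libraries of a group, and the black dash and bar are their mean and SD, with the bar cut at 0 for IRF7. IRF9 lies between 393 and 445 in proliferating cells, between 1344 and 1610 in the controls and between 821 and 905 after dual knockdown, while IRF3 shows no such separation.

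**Figure D2:**
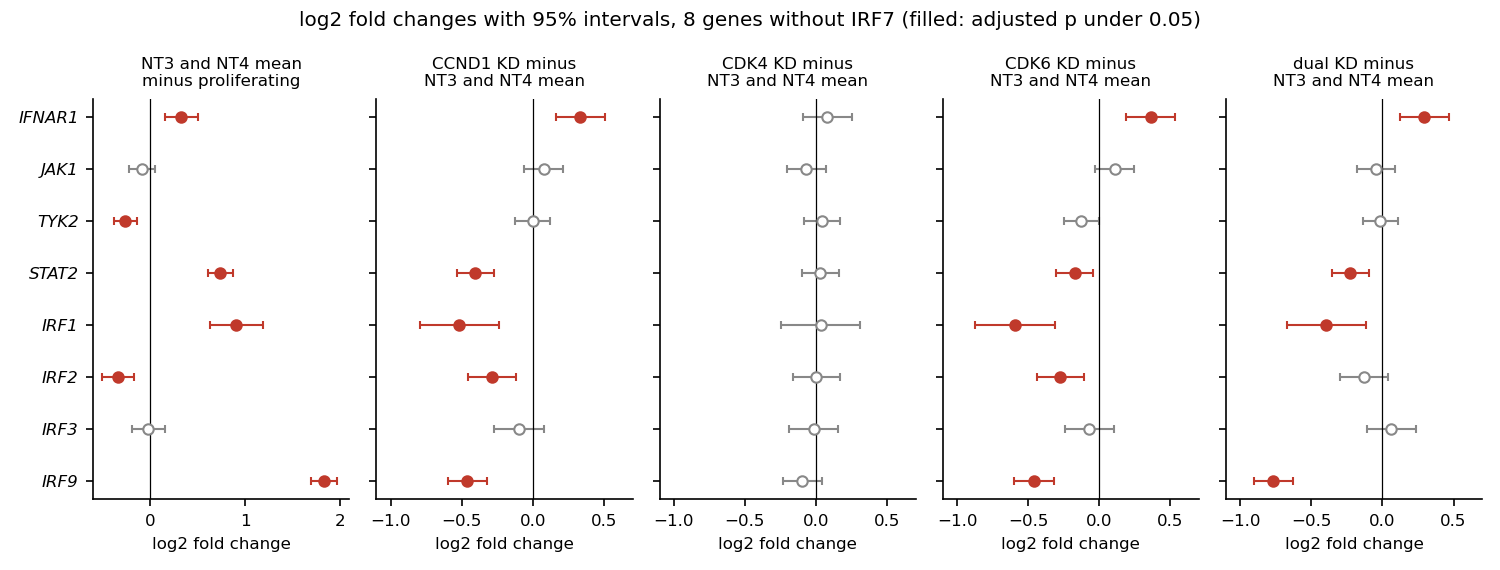
log2 fold change (horizontal axes) with its 95% interval for 8 of the genes, IRF7 left out for its low counts, in the senescent controls against proliferating cells and in each knockdown (KD) against the mean of NT3 and NT4. Filled points passed an adjusted p of 0.05 by limma; after CDK4 knockdown none did, while IRF9 was at -0.46 after CCND1 and CDK6 knockdown and -0.77 after dual knockdown.

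IRF9 (Entrez 10379) encodes the DNA-binding subunit of ISGF3. It lies on chromosome 14 at 24161234 to 24168043 of hg38 on the plus strand, with 9 exons in its MANE transcript. Its promoter is printed beside that of IRF1 because both hold a match to the STAT-binding GAS element, TTCNNNGAA, and beside that of STAT2, the other ISGF3 subunit among the 9 genes, which holds none. Each run is the 250 bases before a RefSeq transcription start on GRCh38.p14, with motif matches in capitals.
IRF9 promoter, chr14:24161015-24161264, plus strand: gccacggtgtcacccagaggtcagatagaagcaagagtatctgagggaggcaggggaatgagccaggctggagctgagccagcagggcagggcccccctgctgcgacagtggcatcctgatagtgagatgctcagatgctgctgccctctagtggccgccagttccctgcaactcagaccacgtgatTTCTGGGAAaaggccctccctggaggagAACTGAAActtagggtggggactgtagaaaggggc
IRF1 promoter, chr5:132490774-132491023, minus strand: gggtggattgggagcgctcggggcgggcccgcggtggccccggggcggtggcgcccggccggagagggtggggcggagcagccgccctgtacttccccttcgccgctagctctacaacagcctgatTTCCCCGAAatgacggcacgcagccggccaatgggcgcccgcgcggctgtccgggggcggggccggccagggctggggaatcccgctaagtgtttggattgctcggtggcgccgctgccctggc
STAT2 promoter, chr12:56360108-56360357, minus strand: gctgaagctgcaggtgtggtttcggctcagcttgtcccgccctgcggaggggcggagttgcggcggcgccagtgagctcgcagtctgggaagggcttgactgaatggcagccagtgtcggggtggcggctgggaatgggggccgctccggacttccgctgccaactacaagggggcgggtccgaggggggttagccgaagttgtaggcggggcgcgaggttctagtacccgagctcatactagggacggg
In the IRF9 run the GAS match lies 63 to 55 bases before the start. The other capitals, 35 to 28 bases before the start, match the shorter IRF core, AA, any 2 bases, then GAAA. In the IRF1 run the GAS match lies 124 to 116 bases before the start.

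Motifs were searched on both strands of those 250 bases. GAS was found in 6.57% of the 35116 RefSeq promoters in the table, the IRF core in 20.3%, and the full interferon-stimulated response element (GAAA, any 2 bases, GAAA), which itself contains the IRF core, in 3.02%. The full element was in none of the promoters matched to these genes, which were those of IFNAR1 (2 starts), JAK1 (3 starts), TYK2, STAT2, IRF1 and IRF9. The IRF core was also in 1 of the 3 JAK1 promoters. It was added to the search after the sequences had been seen. A match describes letters in this window and does not show binding. IRF2, IRF3 and IRF7 were not matched.

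IRF9 was the gene of the 9 with the largest change in the controls against proliferating cells among those with ample reads. Its normalised counts were 393, 394 and 445 in proliferating cells, 1610, 1422 and 1522 with NT3, and 1344, 1457 and 1419 with NT4. Every control library was above every proliferating library, and IRF9 rose by 1.83 (log2, SE 0.07, limma adjusted p = 7.77e-16), or 3.56-fold. Counts were 1068, 1022 and 1092 after CCND1 knockdown and 1001, 1077 and 1113 after CDK6 knockdown. All 6 of these libraries lay below the lowest control library and above the proliferating ones. After CDK4 knockdown the counts were 1504, 1205 and 1403, which overlapped the controls, and after dual knockdown they were 849, 905 and 821, below every library of the single knockdowns.

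IRF9 fell by 0.46 (SE 0.07, limma adjusted p = 2.33e-05) after CCND1 knockdown and by 0.46 (SE 0.07, limma adjusted p = 1.23e-05) after CDK6 knockdown. After dual knockdown it fell by 0.77 (SE 0.07, limma adjusted p = 7.09e-09). After CDK4 knockdown the difference was -0.10, with a 95% interval of -0.24 to 0.04. IRF9 was lower after CDK6 than after CDK4 knockdown (-0.36, SE 0.08, limma adjusted p = 0.000908). It was the sole gene of the 9 that differed between dual and CDK6 knockdown (-0.31, SE 0.08, limma adjusted p = 0.00972), where 13% of all genes differed. That call was lost without CDK6 replicate 3 (-0.28, limma adjusted p = 0.0576) and without dual replicate 3 (-0.28, limma adjusted p = 0.0522). It was likewise the sole gene of the 9 that differed between CCND1 and dual knockdown (0.31 higher with CCND1, SE 0.08, limma adjusted p = 0.0068; all genes 20.3%).

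The dual effect on IRF9 was not shown to depart from the sum of the single effects (-0.21, SE 0.10, unadjusted p = 0.0507, limma adjusted p = 0.237). None of the 9 genes departed from that sum by limma, edgeR or DESeq2, and none had an unadjusted p under 0.05, where 6.35% of all genes departed. Even after dual knockdown IRF9 remained above proliferating cells (1.06, SE 0.08, limma adjusted p = 7.24e-11). In order of level, proliferating cells were lowest, then dual knockdown, each apart from its neighbours, then CCND1 and CDK6 knockdown together, and last CDK4 knockdown, NT4 and NT3, which overlapped each other. The calls against controls held with either control alone. Of the IRF9 MANE transcript, 93.1% overlaps the exons of a same-strand locus (ENSG00000259529) and 18.9% those of an opposite-strand RNA. How reads shared by overlapping genes were assigned is not given in the sources used here, so IRF9 values carry that uncertainty.

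STAT2 (Entrez 6773), at chromosome 12, 56341597 to 56360203, minus strand, encodes the STAT protein that brings an activation domain to ISGF3. Its normalised counts were 1815, 1622 and 1719 in proliferating cells, 3642, 3333 and 2999 with NT3, and 2411, 2445 and 2596 with NT4. All control libraries were above all proliferating ones, but the NT3 libraries were also all above the NT4 libraries. STAT2 rose in the controls by 0.74 (SE 0.06, limma adjusted p = 7.58e-10), or 1.67-fold, and was lower with NT4 than with NT3 by -0.42 (SE 0.07, limma adjusted p = 0.000196). Counts were 2080, 2143 and 2275 after CCND1 knockdown, 2890, 2842 and 3045 after CDK4 knockdown, 2381, 2646 and 2619 after CDK6 knockdown, and 2534, 2610 and 2236 after dual knockdown. The CCND1 libraries lay below every control library, whereas the CDK6 and dual libraries spread to both sides of those of NT4.

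Against both controls together STAT2 fell by 0.41 (SE 0.06, limma adjusted p = 4.63e-05) after CCND1 knockdown, by 0.17 (SE 0.06, limma adjusted p = 0.0321) after CDK6 knockdown and by 0.22 (SE 0.06, limma adjusted p = 0.0061) after dual knockdown. Against NT3 alone the 3 differences were -0.61, -0.38 and -0.43 (limma adjusted p = 1.22e-06, 0.000211 and 4.87e-05). With NT4 alone they were -0.20, 0.04 and -0.02 (limma adjusted p = 0.0603, 0.749 and 0.883), so each of the 3 calls for STAT2 was lost and that for CDK6 changed direction. After CDK4 knockdown STAT2 was at 0.03 (95% interval -0.10 to 0.16) against both controls and rose against NT4 alone (0.24, limma adjusted p = 0.0366). The comparison of CDK6 with CDK4 knockdown does not use the controls, and there STAT2 was lower by -0.20 (SE 0.07, limma adjusted p = 0.036). Leaving out any 1 library other than CDK6 replicate 2 ended that call (-0.15 to -0.22, limma adjusted p = 0.0508 to 0.169). The CDK6 call against controls ended without NT3 replicate 1, NT4 replicate 3, CDK6 replicate 1 or CDK6 replicate 3 (-0.14, -0.16, -0.12 and -0.19), with no filter on low values (limma adjusted p = 0.0538) and in a fit limited to the groups compared (limma adjusted p = 0.0926), and the dual call without dual replicate 3 (-0.16, limma adjusted p = 0.0773).

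**Figure D3:**
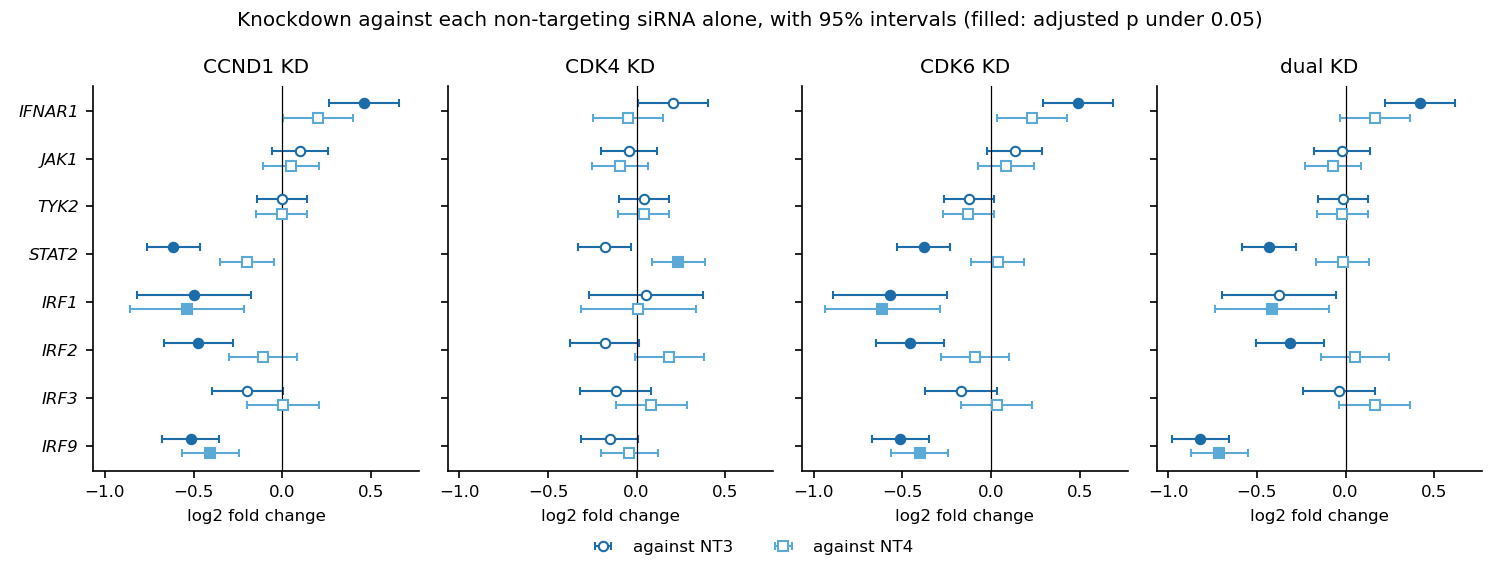
log2 fold change (horizontal axes) with its 95% interval for 8 of the genes, IRF7 left out, in each knockdown (KD) against NT3 alone (dark circles) and NT4 alone (light squares), filled where the adjusted p was under 0.05 by limma. For IRF9 and IRF1 the paired values lie close together, while for STAT2, IRF2 and IFNAR1 they lie apart, as for STAT2 after dual knockdown at -0.43 and -0.02.

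IFNAR1 (Entrez 3454), at chromosome 21, 33324387 to 33359864, plus strand, encodes the signalling chain of the type I interferon receptor, which binds TYK2. Its normalised counts were 1388, 1536 and 1481 in proliferating cells, 1832, 1961 and 1332 with NT3, and 1953, 2005 and 2081 with NT4. The lowest of these 9 values was NT3 replicate 3, the library that stands apart, so controls and proliferating cells overlapped. IFNAR1 rose in the controls by 0.33 (SE 0.08, limma adjusted p = 0.00136), or 1.26-fold, though NT3 alone gave 0.20 (limma adjusted p = 0.0685). The difference of NT4 from NT3 (0.26, SE 0.10, limma adjusted p = 0.0496) was 0.09 without NT3 replicate 3 (limma adjusted p = 0.335), and it also lost its call without any 1 of the NT4 libraries. The IFNAR1 call between the controls held in 5 of 16 alternatives, and was lost with edgeR (adjusted p = 0.0703), DESeq2 (adjusted p = 0.0645) and a block by library code series (limma adjusted p = 0.0561) among others.

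IFNAR1 was the gene of the 9 that was higher after knockdown. Its counts were 2230, 2353 and 2375 after CCND1 knockdown, 2301, 2383 and 2413 after CDK6 knockdown, and 2288, 2398 and 2100 after dual knockdown, all above every control library. CDK4 knockdown gave 2027, 2005 and 1815, among the controls. IFNAR1 rose by 0.33 (SE 0.08, limma adjusted p = 0.00416), 0.36 (SE 0.08, limma adjusted p = 0.00133) and 0.29 (SE 0.08, limma adjusted p = 0.00622) after CCND1, CDK6 and dual knockdown. Against NT3 alone the values were 0.46, 0.49 and 0.42, and all 3 passed. Against NT4 alone they were 0.20, 0.23 and 0.17, and none of the 3 passed (limma adjusted p = 0.145, 0.069 and 0.18). The dual call for IFNAR1 also ended in a fit limited to the groups compared (limma adjusted p = 0.0559). After CDK4 knockdown the difference was 0.08, with a 95% interval of -0.09 to 0.25. Between the kinases, CDK6 knockdown was higher than CDK4 knockdown by 0.28 (SE 0.10, limma adjusted p = 0.0251), a call that ended without CDK4 replicate 3 (0.23), CDK6 replicate 2 (0.28) or CDK6 replicate 3 (0.27).

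JAK1 (Entrez 3716, chromosome 1, 64833223 to 65067754, minus strand), the kinase on IFNAR2, passed in no comparison against proliferating cells or controls. Its group means ran from 4299 ± 72.8 after CDK4 knockdown to 4861 ± 99.3 after CDK6 knockdown (SD, n = 3), and every group overlapped the next in order. Some groups further apart in that order did not overlap. Not all such pairs were compared, and none of those compared passed in the fit of all groups. A fit limited to the groups compared called JAK1 for CDK6 against CDK4, dual against CDK6 and dual knockdown against proliferating cells (limma adjusted p = 0.00414, 0.0234 and 0.016). CDK6 libraries lay above those of CDK4 knockdown (0.18, limma adjusted p = 0.0746). Dual libraries lay below those of CDK6 knockdown (-0.15, limma adjusted p = 0.199), CCND1 knockdown and proliferating cells (-0.13, limma adjusted p = 0.128). In the controls against proliferating cells the JAK1 difference was -0.09 (95% interval -0.22 to 0.05). NT3 replicate 3, at 3695, was the lowest JAK1 value of all 21 libraries. Without it JAK1 fell by 0.13 after CDK4 knockdown (limma adjusted p = 0.0116) and by 0.11 after dual knockdown (limma adjusted p = 0.0184), where the full data gave -0.07 and -0.05. Without NT3 replicate 2, at 5055, JAK1 was called at -0.13 in the controls against proliferating cells (limma adjusted p = 0.0397) and at 0.16 after CDK6 knockdown (limma adjusted p = 0.0296; 0.11 with all libraries).

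TYK2 (Entrez 7297, chromosome 19, 10350533 to 10380608, minus strand) encodes the kinase on IFNAR1. Its normalised counts were 1066, 1065 and 1075 in proliferating cells and 797 to 948 in the 6 control libraries, with no overlap. TYK2 fell in the controls by 0.26 (SE 0.06, limma adjusted p = 0.000489). None of the knockdowns moved TYK2 past the threshold. CDK6 knockdown had the lowest mean, 816 ± 40.5 (SD, n = 3), with a difference of -0.13 (limma adjusted p = 0.0931) that passed without NT3 replicate 3 (-0.17, limma adjusted p = 0.0087). After dual knockdown TYK2 was still lower than in proliferating cells (-0.28, SE 0.07, limma adjusted p = 0.00116).

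IRF1 (Entrez 3659, chromosome 5, 132440440 to 132508719, minus strand) is an activator induced by interferon gamma and by inflammatory cytokines. Its normalised counts were 413, 455 and 479 in proliferating cells, 705, 871 and 926 with NT3 and 742, 1013 and 827 with NT4. All controls were above all proliferating libraries and the control siRNAs overlapped. IRF1 rose in the controls by 0.91 (SE 0.13, limma adjusted p = 3.72e-06), or 1.87-fold. Its counts were 533, 492 and 773 after CCND1 knockdown, 513, 709 and 477 after CDK6 knockdown, and 608, 704 and 610 after dual knockdown. The dual libraries were all below the controls, by a margin of 704 against 705 at the closest, while CCND1 and CDK6 knockdown each had 1 library within the control range.

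IRF1 fell by 0.52 (SE 0.13, limma adjusted p = 0.00576) after CCND1 knockdown, by 0.59 (SE 0.13, limma adjusted p = 0.00126) after CDK6 knockdown and by 0.40 (SE 0.13, limma adjusted p = 0.021) after dual knockdown. CDK4 knockdown left it at 913, 822 and 847, a difference of 0.03 (95% interval -0.25 to 0.31), and CDK6 was lower than CDK4 knockdown by -0.62 (SE 0.15, limma adjusted p = 0.00318). The CCND1 call ended without CCND1 replicate 2 (-0.39, limma adjusted p = 0.0662). The dual call ended without NT4 replicate 2, dual replicate 1 or dual replicate 3 (-0.33, -0.36 and -0.36), with no filter on low values (limma adjusted p = 0.0642) and with NT3 as the sole control (-0.37, limma adjusted p = 0.0551). Between dual and CDK6 knockdown, where IRF9 differed, IRF1 was at 0.20 (95% interval -0.13 to 0.52, limma adjusted p = 0.452). Opposite-strand RNA IRF1-AS1 overlaps 16.3% of the IRF1 MANE transcript, and without a stated strand setting their reads cannot be told apart.

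IRF2 (Entrez 3660, chromosome 4, 184385702 to 184474558, minus strand) competes with IRF1 at shared sites. Its normalised counts were 398, 403 and 415 in proliferating cells, 389, 346 and 357 with NT3 and 292, 275 and 279 with NT4. The 3 groups did not overlap. IRF2 fell in the controls by 0.34 (SE 0.08, limma adjusted p = 0.000793), but NT4 was below NT3 by -0.37 (SE 0.09, limma adjusted p = 0.00546), and against NT3 alone the difference was -0.16 (limma adjusted p = 0.143). The IRF2 call between the controls ended in a fit of those groups alone (limma adjusted p = 0.0587). Its mean was 262 ± 16.7 after CCND1, 321 ± 17.2 after CDK4, 265 ± 22.1 after CDK6 and 294 ± 39.0 after dual knockdown (SD, n = 3). IRF2 fell by 0.29 (SE 0.08, limma adjusted p = 0.00909) after CCND1 and by 0.27 (SE 0.08, limma adjusted p = 0.00925) after CDK6 knockdown.

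Against NT3 alone both IRF2 calls held (-0.47 and -0.46). Neither call held against NT4 alone, where the differences were -0.11 and -0.09 (limma adjusted p = 0.47 and 0.505). They also ended without CCND1 replicate 3 (-0.24, limma adjusted p = 0.0646) and without CDK6 replicate 2 (-0.21, limma adjusted p = 0.0755). IRF2 after dual knockdown (-0.13, limma adjusted p = 0.204) passed without dual replicate 3 (-0.23, limma adjusted p = 0.0324) and against NT3 alone (-0.31, limma adjusted p = 0.00915). Against NT4 alone IRF2 was at 0.05 after dual knockdown, not past the threshold. IRF2 was lower after CDK6 than after CDK4 knockdown (-0.28, SE 0.09, limma adjusted p = 0.0246), a call lost without CDK4 replicate 2 or 3 or CDK6 replicate 1 or 2 (-0.21 to -0.28, limma adjusted p = 0.0553 to 0.121). It stayed below proliferating cells after dual knockdown (-0.47, limma adjusted p = 0.000141).

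IRF3 (Entrez 3661, chromosome 19, 49659569 to 49665875, minus strand), the constitutive factor that TBK1 phosphorylates, passed in none of the comparisons. Its normalised counts ran from 425 to 630 over all 21 libraries, with means between 487 ± 21.5 for NT4 and 561 ± 59.5 for NT3 (SD, n = 3). The difference was -0.02 in the controls against proliferating cells (95% interval -0.20 to 0.15) and between -0.10 and 0.06 in the 4 knockdowns. NT4 was at -0.20 against NT3, with no overlap of libraries (limma adjusted p = 0.125). Its 95% intervals in the knockdowns reached from -0.27 at the lowest to 0.24 at the highest. BCL2L12, on the opposite strand, overlaps 14.2% of the IRF3 MANE transcript.

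IRF7 (Entrez 3665, chromosome 11, 612553 to 615983, minus strand) is itself an interferon-stimulated gene and amplifies interferon production. It was close to the limit of detection, with 11 reads over the 3 proliferating libraries, 51 with NT3 and 60 with NT4. The totals were 20 reads after CCND1 knockdown, 30 after CDK4 knockdown, 13 after CDK6 knockdown and 2 after dual knockdown. Relative to the controls and scaled for library size, these reads were 38.3% (exact 95% counting interval 22.5 to 62.1) with CCND1, 54.4% (35.1 to 82.1) with CDK4, 23.3% (12 to 41.5) with CDK6 and 3.94% (0.471 to 14.6) with dual knockdown. Those intervals cover counting error only, not the spread between libraries.

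Per library, the normalised counts of IRF7 were 1.75, 8.51 and 0.886 in proliferating cells, 27.0, 8.51 and 15.8 with NT3, and 17.8, 20.4 and 22.1 with NT4. CCND1 knockdown gave 18.1, 1.07 and 1.96, CDK4 knockdown 9.47, 10.1 and 9.81, CDK6 knockdown 4.07, 1.86 and 6.71, and dual knockdown 0, 2.18 and 0. The CDK6 and dual libraries were all below the controls, while 1 CCND1 library was among them. By limma IRF7 rose in the controls (2.34, SE 0.63, adjusted p = 0.00243), and fell after CCND1 (-1.93, adjusted p = 0.0241), CDK6 (-1.95, adjusted p = 0.0169) and dual knockdown (-3.66, adjusted p = 7.19e-05). IRF7 entered the test mainly through control libraries. The filter itself therefore favoured high controls, and these p-values cannot by themselves show a change. The fitted values also depend on the pseudocount: for dual knockdown they ran from -1.39 with 10 to -5.96 with 0.1. The CCND1 call for IRF7 was lost in 9 of 20 alternatives, among them a pseudocount of 0.1 (limma adjusted p = 0.0729), edgeR (-1.37, adjusted p = 0.0848) and DESeq2 (-1.40, adjusted p = 0.0824). It was also lost without NT3 replicate 1 (-1.74), CCND1 replicate 2 (-1.31) or CCND1 replicate 3 (-1.57), and was -2.91 without CCND1 replicate 1. The CDK6 call was lost without CDK6 replicate 2 (-1.57), with a pseudocount of 0.1 (limma adjusted p = 0.0719) and with NT3 as the sole control (limma adjusted p = 0.0513). The call in the controls against proliferating cells was lost under quantile normalisation (1.02, limma adjusted p = 0.144).

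Without the shared controls, CDK6 against CDK4 knockdown differed at 5 of the 9 genes, 1 higher (IFNAR1) and 4 lower (STAT2, IRF1, IRF2 and IRF9), where 34.8% of all genes differed (17.5% higher and 17.3% lower). Libraries did not overlap for 8 of the 9 genes, and 7 of 8 without IRF7, against 51.7% of all genes. With 1 library left out in turn, 2 to 4 genes differed. Dual knockdown against proliferating cells differed at 6 genes, 4 higher and 2 lower, where 65.6% of all genes differed (32.7% higher and 32.9% lower). In either direction that count is near the background. IFNAR1 (0.62), STAT2 (0.52), IRF1 (0.51) and IRF9 (1.06) were higher there, and IRF2 and TYK2 lower.

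On a scale of normalised counts per kilobase of MANE transcript, the levels of the 9 genes can be set beside each other. In the controls IRF9 (899) and JAK1 (890) were highest and nearly level, followed by STAT2 (659), IRF3 (328), IFNAR1 (306), IRF1 (238), TYK2 (210), IRF2 (143) and IRF7 (9.68), all means over 6 libraries. In proliferating cells JAK1 led at 942, and IRF9, at 252, was level with TYK2. After dual knockdown IRF9 was at 528 and STAT2 at 558 per kilobase.

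Other genes of the pathway were taken from lists that were chosen with earlier results of these data known, and the share of all genes that changed is as given above for each comparison. Of 12 tested genes for other receptors, kinases and STATs, 7 rose and 2 fell in the controls, with a median log2 difference of 0.49, where the median of all genes was -0.03. Of all genes 32.6% rose and 36.1% fell there. The receptor chain IFNGR1 rose (0.77, limma adjusted p = 7.06e-10) and JAK2 fell (-0.50, limma adjusted p = 4.93e-07). IFNAR2, the partner chain of IFNAR1, passed neither there nor in any knockdown against the mean of both controls. However, IFNAR2 was lower with NT4 than with NT3 (-0.38, limma adjusted p = 0.00429). It was also lower after CDK6 than after CDK4 knockdown (-0.39, limma adjusted p = 0.00228). In the knockdowns this list moved both ways, with 2 up and 1 down for CCND1, 5 up and none down for CDK4, 4 up and 3 down for CDK6, and 3 up and 2 down for dual knockdown. IL10RB, a receptor chain for interferon lambda and interleukin 10, rose after each of the 4 knockdowns, by 0.38 with CCND1, 0.50 with CDK4, 0.49 with CDK6 and 0.62 with both kinases (limma adjusted p = 0.000104, 8.16e-06, 2.52e-06 and 5.86e-08).

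Of 12 tested negative regulators of JAK-STAT signalling, 2 rose and 4 fell in the controls, where 32.6% of all genes rose and 36.1% fell. USP18, an interferon-stimulated inhibitor that acts at IFNAR2, rose (2.63, limma adjusted p = 7.12e-15), and SOCS1, an inhibitor of JAK kinases, fell (-1.67, limma adjusted p = 5.66e-08). Under CCND1 knockdown 2 rose and 5 fell, under CDK4 1 and 3, under CDK6 3 and 4, and under dual knockdown 2 and 4. USP18 fell with CCND1 (-1.01), CDK6 (-0.92) and dual knockdown (-1.54; limma adjusted p = 7.08e-07, 1.01e-06 and 3.55e-10). SOCS3 fell in the same knockdowns (-0.65, -0.90 and -0.83; limma adjusted p = 0.00785, 0.000332 and 0.000623). PTPN1, a phosphatase of JAK kinases, went the other way and rose by 0.54 after dual knockdown (limma adjusted p = 1.2e-07).

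Of 11 tested genes that activate IRF3 and IRF7, 9 rose and 2 fell in the controls. The RNA sensors IFIH1 (2.55, limma adjusted p = 5.18e-10) and RIGI (1.95, limma adjusted p = 5.28e-14) rose, while the DNA sensor CGAS fell (-0.82, limma adjusted p = 7.69e-05). After dual knockdown 7 fell and none rose, with a list median of -0.30, where the median of all genes was 0.00. IFIH1 (-2.13), RIGI (-0.84), TLR3 (-0.84) and CGAS (-0.81) fell most (limma adjusted p = 4.68e-08, 2.26e-07, 0.00806 and 0.000203). CCND1 and CDK6 knockdown each lowered 4 of these genes and raised 1, and CDK4 knockdown lowered 2. In CDK6 knockdown the gene that rose was MAVS (0.44, limma adjusted p = 8.35e-05), the adaptor of both RNA sensors.

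The median ISGF3 target gene moved further than IRF9 and STAT2 in the controls and after CCND1, CDK6 and dual knockdown. Not every target gene did, since the smallest rise in the list was below that of IRF9 (1.83). After dual knockdown the list ranged up to 0.06. Binding of ISGF3 to these genes was not measured. Of 29 tested, 29 rose in the controls, with a median of 4.08, among them OAS1 (8.33), OAS2 (8.14), RSAD2 (7.68) and IFI44L (7.26). OAS1, OAS2 and RSAD2 encode antiviral enzymes. After CCND1 knockdown 27 fell and 1 rose (median -0.98), after CDK6 knockdown 28 fell and 1 rose (median -1.37), and after dual knockdown 28 fell and none rose (median -2.24). After CDK4 knockdown 1 fell, UBE2L6 (-0.32, limma adjusted p = 0.0426), and the median was -0.09. In the dual knockdown IRF9 differed by -0.77 and STAT2 by -0.22, though STAT2 was at -0.02 against NT4 alone. The largest falls of the list there were those of IFI44L (-3.81), CMPK2 (-3.79), RSAD2 (-3.75) and OAS1 (-3.72). Dual knockdown against proliferating cells still had 27 of the 29 higher and 1 lower. NT4 against NT3 had 1 higher and 9 lower (median -0.34).

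Of 16 tested targets of IRF1 and interferon gamma, 8 rose and 3 fell in the controls, led by the chemokines CXCL10 (6.86) and CXCL11 (5.46). Of all genes 32.6% rose and 36.1% fell there, and in either direction the list is near the 68.6% of all genes. After CCND1 knockdown 5 fell and 1 rose (all genes 14.4% and 16.7%), and after CDK6 knockdown likewise 5 fell and 1 rose (all genes 20.8% and 21.1%). Dual knockdown lowered 7 and raised 1 (all genes 21.5% and 22.5%), with CXCL10 at -2.94 and CXCL11 at -2.64 (limma adjusted p = 4.91e-10 and 1.51e-08). In either direction the CDK6 and dual counts are near the share of all genes (41.9% and 44%). CDK4 knockdown lowered NLRC5 (-0.50, limma adjusted p = 0.00748), a transactivator of MHC class I genes, and no other gene of that list passed. Several genes of this list and the previous one respond to type I and type II interferon alike.

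The interferon genes themselves were at the edge of detection. Of 17 in the table, none reached the level needed for the test, and 10 had any read. IFNB1 had 23 reads and IFNA1 93 reads over all 21 libraries, and IFNG had 1. Their summed normalised counts were 0 to 3.49 in proliferating cells, 6.38 to 18.5 in the controls and 2.0 to 5.52 after dual knockdown, so no change was tested at this depth. Of the other IRF family genes, IRF4, IRF5 and IRF8 had 75, 48 and 12 reads over all libraries and were not tested.

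Over the 18 irradiated libraries, the genes most like each member that changed in at least 3 knockdowns were named by Pearson correlation of log2 values, as a description, since these libraries share groups and controls. IRF9 was most like IFIH1 (r = 0.978), OAS1 (0.978) and MX2 (0.977). IFNAR1 was most like PJA2 (0.984), NEK9 (0.980) and CDC42BPA (0.976). NT3 replicate 3 was among these libraries and had their lowest IFNAR1 value (1332). The correlations were not recomputed without it. STAT2 had M6PR (0.869), STXBP2 and MAFG (0.861 each), and IRF1 had KLF10 (0.894), TRIB1 (0.891) and BBC3 (0.868). For IRF7 the closest were ADGRG1 (0.923), PSMC3IP (0.893) and PIMREG (0.870), over counts that were low.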

How the data were processed

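The 9 genes and the gene lists were chosen with earlier results of these data known. The deposited values are a signal, called normalised counts per the file headers: gene read counts that the authors divided by 1 size factor per library, since 100% of values returned whole reads (tolerance 0.01). Per the submitters' processing notes, Trimmomatic 0.38.1, HISAT2 2.2.1, featureCounts 2.0.3, DESeq2 2.11.40.8 and the hg38 build were used. Annotation and strand setting are not given in the sources used here.

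Groups follow the labels, and the columns name only the group, so libraries are numbered in column order, as names. The series text numbers the control siRNAs differently from the sample titles, which are used here. The test took the 11579 of 16383 genes that reached a value of 10 in 3 or more libraries. The log2 of the value plus 1 was fitted with limma 3.58.1 (R 4.3.3; trended empirical Bayes), with 1 mean per group and 1 estimate of the spread over the 7 groups. Two-sided p-values got a Benjamini-Hochberg adjustment within each comparison. A fold change on this scale understates the change of low genes. The fit was tested on simulated data. Alternatives were pseudocounts of 0.1 and 10, no filter and a minimum mean of 100, median centring, quantile normalisation, either control alone, the compared groups alone, each library left out, and edgeR 4.0.16 and DESeq2 1.42.0 on the recovered reads. A block for the 3 series of library codes in the column names was added after seeing the data. All 9 genes are named. From each list, at most the 4 tested genes with the largest change past the threshold in a comparison are named, plus direct partners of the 9 genes. Some items of these lists are not reported here. Gene positions and overlaps are from GENCODE on hg38, and promoters from RefSeq on GRCh38.p14.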

Additional observations from a re-analysis of the deposited data

How the results depend on the processing

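Of 1879 recomputed values of the 9 genes in 11 comparisons, 1788 kept their call, 67 lost a call, 23 gained one and 1 called value reversed. Among the 1788, 62 values not past the threshold in the fit reported changed sign. The reversed value was that of STAT2 after CDK6 knockdown, which was 0.036 with NT4 as the sole control. The cause was not tested. With NT4 alone the number of genes called was 3 for CCND1, 1 for CDK4, 3 for CDK6 and 3 for dual knockdown. The fit of the compared groups alone called 1 gene for NT4 against NT3, 2 for dual against CDK6 knockdown and 2 for CCND1 against dual knockdown. A pseudocount of 0.1 called 2 in each of the latter 2 comparisons, DESeq2 called 2 for CCND1 against dual knockdown, and no filter left 3 for CDK6 against CDK4 knockdown. Leaving out 1 library in turn gave 7 to 8 genes for the controls against proliferating cells, 2 to 3 for NT4 against NT3, 4 to 6 for CCND1, 0 to 1 for CDK4, 4 to 7 for CDK6 and 4 to 6 for dual knockdown. The same gave 2 to 4 for CDK6 against CDK4, 0 to 1 for dual against CDK6, 1 to 2 for CCND1 against dual, and 6 to 7 for dual knockdown against proliferating cells. Without NT3 replicate 3, knockdown changed 6 genes for CCND1, 1 for CDK4, 7 for CDK6 and 6 for both kinases. Centring each library on its median shifted the median gene by 0.11 in the controls against proliferating cells, where the higher share of called genes went from 47.4% to 57.9%, and by 0.13 in dual knockdown against proliferating cells (49.9% to 61.1%), where TYK2 was then at -0.15 (limma adjusted p = 0.0543). No paired analysis was possible because the table columns carry no replicate numbers, but their library codes fall into 3 series, and a block by series was fitted. It ended the IFNAR1 call for NT4 against NT3 (limma adjusted p = 0.0561) and gained TYK2 for CDK6 against CDK4 knockdown (limma adjusted p = 0.0406). No other call of the 9 genes changed among the comparisons fitted. Comparisons with proliferating cells were not fitted with the block. Libraries of the same series had a median correlation of deviations of 0.037, against -0.017 for pairs of different series and group. With no filter, CDK6 against CDK4 knockdown lost IFNAR1 (limma adjusted p = 0.0635) and STAT2 (limma adjusted p = 0.0606). The fit of the compared groups alone gained JAK1 for CDK6 against CDK4 (limma adjusted p = 0.00414), dual against CDK6 (limma adjusted p = 0.0234) and dual knockdown against proliferating cells (limma adjusted p = 0.016). IRF7, with at most 60 reads in a group of 3 libraries, is limited by depth.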
